A study of Mus musculus with 27 samples.

Results

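The TNF receptor family and its death receptors were followed through 10 genes of 4T1 cells, 7 receptors and 3 ligands, out of 55401 genes in the table. They were chosen by name, on levels and fold changes measured earlier in these libraries. The names are Tnfrsf26, Tnfrsf22, Tnfrsf23, Tnfrsf10b, Tnfrsf1a, Tnfrsf12a, Fas, Tnfsf10, Tnfsf15 and Tnfsf9. Their levels and fold changes are therefore given as a description, with no test, and p-values are printed only for other genes. Where a member is said to pass or not to pass the threshold used for counting genes, this describes the count. It is no test of that member.

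4T1 is a mouse mammary carcinoma line, and its polyadenylated RNA was sequenced in 27 libraries, 9 groups of 3. The knockout arm held 6 lines, each grown from 1 clone: gs1B8 and gs2_B4 lacking Drp1, gs1_B11 and gs2_F6 lacking Fis1, and gs1_B4 and gs1_C8 lacking Mff, with parental 4T1 cells as their reference. These genes encode the GTPase that divides mitochondria and a pair of its receptors on the outer mitochondrial membrane. The drug arm held 4T1 cells kept for 3 days with leflunomide, an inhibitor of pyrimidine synthesis, or with its solvent DMSO. All 6 clones were set against the same 3 parental libraries, so their comparisons are not independent of each other. The labels number the clones of each genotype, and which code carries which number is not given in the sources used here.

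Receptors of this family are surface proteins that bind trimeric ligands of the TNF family. Death receptors such as Fas carry a death domain inside the cell, which recruits the adaptor FADD and the protease caspase-8 and can start apoptosis. Other receptors bind TRAF proteins and activate NF-kappaB, and decoy receptors bind a ligand without passing on a death signal.

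Library totals ran from 18492020 to 31295937 counts, and levels are given as CPM, counts per 1000000 of a library total scaled by its TMM factor. The ribosomal RNA gene CT010467.1 took 23.2% of counts in DMSO replicate 3, and between 1.60% and 5.72% elsewhere. The targeted transcripts were lower in their own clones, with log2 fold changes over parental of -1.68 and -2.42 for Dnm1l (Drp1), -1.17 and -1.47 for Fis1, and -0.88 and -1.01 for Mff. The 6 epithelial and keratin markers listed for the carcinoma (Epcam, Cdh1, Krt7, Krt8, Krt18 and Krt19) summed to between 1830 and 3510 CPM in every library, and the 7 leukocyte markers summed to between 4.16 and 16.4 CPM. Of these, Cd3e and Adgre1 were at 0 in all groups, while group means of Cd68 were 3.46 to 8.39 CPM and those of Csf1r 0.771 to 7.38 CPM. Whether replicates came from separate cultures is not stated, so the spread behind SDs and p-values is that of these libraries and may be technical.

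The receptor genes Tnfrsf26, Tnfrsf22 and Tnfrsf23 lie side by side on the minus strand of chromosome 7 (GRCm38). Tnfrsf26 (ENSMUSG00000045362.8) spans chr7:143607659-143628722, Tnfrsf22 (ENSMUSG00000010751.15) spans chr7:143634806-143649661, and Tnfrsf23 (ENSMUSG00000037613.16) spans chr7:143665809-143685872. In mice, Tnfrsf22 and Tnfrsf23 encode decoy receptors for the ligand TRAIL that lack a death domain, and Tnfrsf26 encodes a related receptor that also lacks one. The coding sequences of Tnfrsf22 and Tnfrsf23 were identical at 481 of 531 aligned bases (90.6%), with a longest identical run of 102 bases. A stretch of 186 coding bases around that run, from the GENCODE transcripts, is shown because reads that lie wholly inside the run cannot be told apart between these genes. Capitals mark the 24 bases that differ when both are laid side by side without gaps.
Tnfrsf22: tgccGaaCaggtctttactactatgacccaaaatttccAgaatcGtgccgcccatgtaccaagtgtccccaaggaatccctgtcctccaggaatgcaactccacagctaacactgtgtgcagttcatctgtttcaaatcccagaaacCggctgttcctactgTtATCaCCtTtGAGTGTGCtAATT
Tnfrsf23: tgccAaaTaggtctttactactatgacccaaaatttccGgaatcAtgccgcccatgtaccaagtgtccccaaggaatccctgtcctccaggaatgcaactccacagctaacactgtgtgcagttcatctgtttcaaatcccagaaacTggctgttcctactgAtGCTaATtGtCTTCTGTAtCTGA

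The deposited estimates carried this sharing. Neither the Tnfrsf22 nor the Tnfrsf23 value was a whole number in any of the 27 libraries (0 of 27), whereas their sum was whole in 27 of 27, within 0.011 of a count. Levels of either gene are thus uncertain on their own, and their sum is given beside them. Tnfrsf26 was identical to Tnfrsf22 at 60.1% of 524 aligned bases and shared 0% of its 50-base words with either gene, and its values were whole in all 27 libraries. An annotated antisense gene, E230032D23Rik, overlaps this stretch and had 1 to 10 counts per library. Whether the counting used strand is not given in the sources used here.

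Tnfrsf26 had the widest range of the 3 genes, and its highest levels were in the Fis1 clones. It stood at 113, 115 and 142 CPM in gs2_F6 and at 51.6, 55.4 and 69.6 CPM in gs1_B11, against 9.47, 10.02 and 13.6 CPM in parental cells. Every Fis1 knockout library was above every other library of the study. In these bulk samples, a change in the number of expressing cells and a change in RNA per cell cannot be told apart. The log2 fold change over parental was 3.47 (SE 0.21), 11.1-fold, in gs2_F6 and 2.42 (SE 0.21), 5.35-fold, in gs1_B11.

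The Drp1 clones were also above parental cells for Tnfrsf26, by less. gs1B8 had 18.1, 18.5 and 23.5 CPM (log2 fold change 0.85, SE 0.22) and gs2_B4 had 15.4, 18.1 and 24.2 CPM (0.79, SE 0.22), and neither overlapped the parental libraries. Without gs2_B4 replicate 3, the value of that clone was 0.59 and no longer passed the threshold used for counting genes below. The Mff clones lay on either side of parental cells: gs1_B4 had 3.25, 3.67 and 5.81 CPM (-1.40, SE 0.27), all below parental, and gs1_C8 had 12.6, 11.4 and 20.2 CPM (0.40, SE 0.23), overlapping it. In the drug arm the values were 7.87, 9.25 and 9.31 CPM with leflunomide and 5.98, 6.49 and 10.9 CPM with DMSO, which overlapped.

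Ordered by mean level, Tnfrsf26 ran through gs2_F6, gs1_B11, gs1B8, gs2_B4, gs1_C8, parental, leflunomide, DMSO and gs1_B4. Of the 8 steps in that order, 4 separated groups whose libraries did not overlap, and the steps between gs1B8, gs2_B4, gs1_C8 and parental did not. Within each arm, the column numbers of the table fall into serial runs with 1 library of each group of that arm. In all 9 groups the library of the last run of its arm had the highest Tnfrsf26 level. For Tnfrsf22 and Tnfrsf23 the same held in 7 of 9 groups each. With the run as a block in the fit, the log2 fold changes were 3.48 in gs2_F6, 2.43 in gs1_B11, 0.85 in gs1B8, 0.78 in gs2_B4, -1.41 in gs1_B4 and 0.39 in gs1_C8.

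The decoy receptor genes next to it did not move with Tnfrsf26. Tnfrsf22 was at 50.1, 57.6 and 54.8 CPM in gs2_F6 and at 43.6, 47.3 and 49.9 CPM in gs1_B11, against 68.0, 72.8 and 75.7 CPM in parental cells. Both Fis1 clones were thus below parental for Tnfrsf22 in every library, with log2 fold changes of -0.42 (SE 0.09) in gs2_F6 and -0.62 (SE 0.09) in gs1_B11. Both Mff clones were below it too, at -0.60 in gs1_B4 and -0.37 in gs1_C8, as was gs2_B4 at -0.33. Only gs1B8, at 71.8, 77.8 and 80.3 CPM, overlapped parental for Tnfrsf22 among the 6 clones. Unedited cells of the drug arm were below all parental libraries too. They had 63.7, 66.9 and 58.3 CPM with leflunomide and 61.7, 52.6 and 62.4 CPM with DMSO.

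Tnfrsf23 averaged between 29.8 ± 2.8 CPM (SD, n = 3) in gs1_B11 and 41.4 ± 3.1 CPM in gs1B8 among the clones, against 39.8 ± 1.3 CPM in parental cells. Its largest log2 fold change from parental in size was -0.42 (SE 0.13), in gs1_B11. The sum of Tnfrsf22 and Tnfrsf23, free of the split between them, was 71.5, 75.6 and 82.9 CPM in gs1_B11 and 85.6, 99.0 and 98.4 CPM in gs2_F6, against 107, 114 and 115 CPM in parental cells. For gs1_B4 the sum was 69.8, 80.7 and 94.9 CPM, for gs1_C8 it was 79.8, 93.96 and 97.7 CPM, and for gs2_B4 it was 82.1, 92.3 and 98.5 CPM. By the sum these 5 clones were below parental in every library, and gs1B8, at 110.0, 119.7 and 124.6 CPM, overlapped it. Unedited cells of the drug arm were also below all parental libraries by the sum. They had 96.5, 100.3 and 89.1 CPM with leflunomide and 87.9, 74.25 and 93.4 CPM with DMSO. A low level of these genes was thus not limited to the clones. The difference between the arms was not tested.

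**Figure D1:**
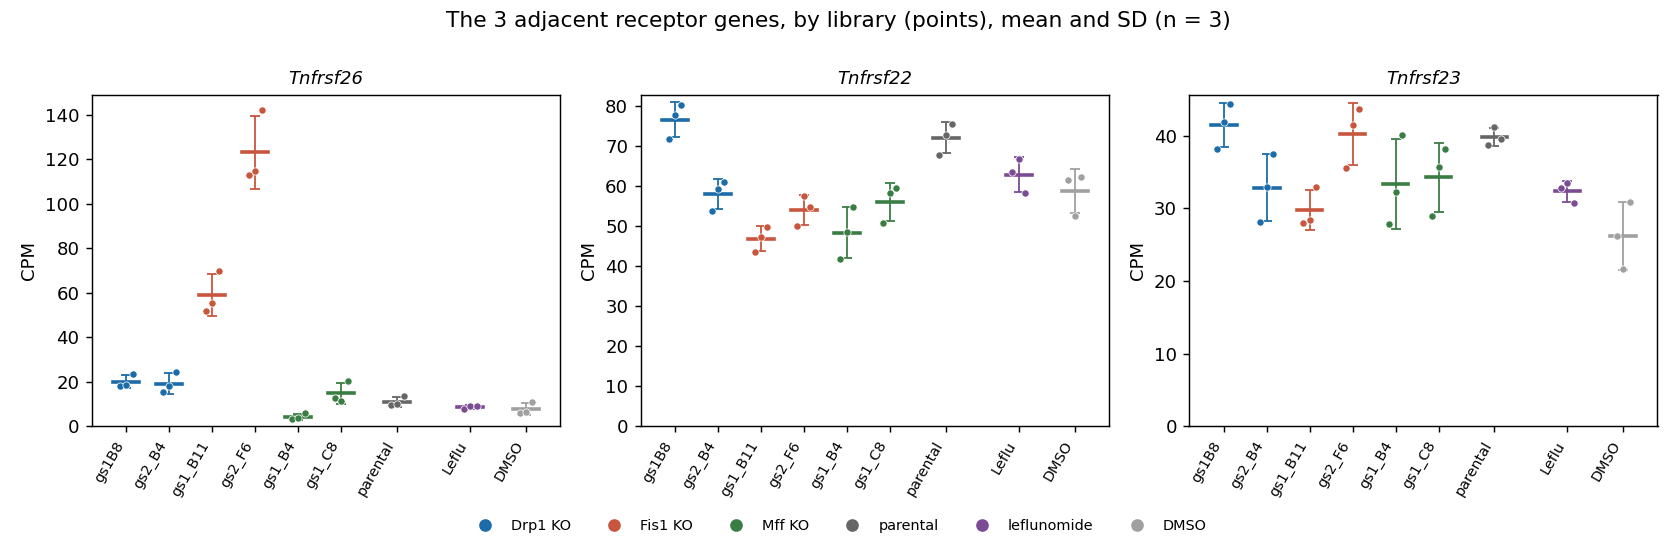
CPM (linear axis from 0) of Tnfrsf26, Tnfrsf22 and Tnfrsf23 in the 9 groups; points are libraries, thick bars group means and thin bars the SD of 3 libraries. Tnfrsf26 stands at 51.6 to 142 CPM in the Fis1 clones gs1_B11 and gs2_F6, against 9.47 to 13.6 CPM in parental cells, and in these clones Tnfrsf22 lies below parental. Tnfrsf22 lies below parental in both groups of the drug arm as well.

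Genes around this stretch were compared with the same fit over all genes. Of the 36 other genes starting within 500 kb of it, 9 passed the low-count filter. In gs2_F6, where Tnfrsf26 was highest, 1 of the 9 passed the threshold: Osbpl5, which encodes a lipid transfer protein, averaged 25.5 CPM, against 28.5 CPM in parental cells (log2 fold change -0.17, SE 0.05, edgeR adjusted p = 0.017). In gs1_B11, 4 of the 9 passed. These counts stand beside 31.3% of all tested genes passing in gs2_F6 and 47.3% in gs1_B11. Phlda2, an imprinted growth regulator, was higher by 0.20 (SE 0.08, edgeR adjusted p = 0.039). The others were lower, namely Nadsyn1 (-0.53), Dhcr7 (-0.24) and Shank2 (-1.23, SE 0.14, at 3.08 CPM, against 7.25 CPM in parental cells, edgeR adjusted p = 6.9e-07). Shank2 in gs1_B11 had the largest log2 fold change in size among the tested neighbours in the Fis1 clones, where Tnfrsf26 had 2.42 and 3.47.

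Tnfrsf10b, Tnfrsf1a and Fas carry death domains, and Tnfrsf12a does not. Tnfrsf10b (ENSMUSG00000022074.6, chr14:69767472-69784411, plus strand) encodes the death receptor for TRAIL in mice. It was at 67.7, 69.5 and 73.6 CPM in gs1_B11 and at 61.5, 60.45 and 62.9 CPM in gs2_F6, against 40.7, 44.2 and 44.97 CPM in parental cells. In the Drp1 clones it was at 63.4, 64.2 and 68.3 CPM in gs1B8 and at 54.7, 52.9 and 53.3 CPM in gs2_B4. All 12 libraries of the Drp1 and Fis1 clones thus lay above all parental libraries, with log2 fold changes of 0.70 in gs1_B11, 0.50 in gs2_F6, 0.58 in gs1B8 and 0.29 in gs2_B4 (SE 0.06 each). The Mff clones did not share this: gs1_B4 had 34.9, 34.9 and 41.8 CPM and gs1_C8 had 43.1, 47.1 and 46.9 CPM, both overlapping parental. With a log2 fold change of -0.25 (SE 0.06), Tnfrsf10b in gs1_B4 passed the threshold used for counting genes below as lower, and gs1_C8 (0.07) did not pass. Leflunomide gave 47.2, 49.9 and 40.55 CPM and DMSO gave 42.8, 40.5 and 44.1 CPM, which overlapped.

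Tnfrsf1a (ENSMUSG00000030341.17, chr6:125349362-125362484, plus strand) encodes the main TNF receptor of most cells. It differed between clones of the same genotype. In the Fis1 clones it was at 25.97, 24.9 and 23.4 CPM in gs2_F6 and at 18.4, 18.4 and 16.3 CPM in gs1_B11, against 20.97, 21.1 and 20.8 CPM in parental cells. gs2_F6 was thus above parental in every library (0.23, SE 0.06) and gs1_B11 below it in every library (-0.24, SE 0.06). gs1_B4 was lower as well, at 15.99, 18.7 and 17.2 CPM (-0.30, SE 0.06). gs1B8 and gs2_B4 were below parental in every library by little (-0.08 and -0.05), and gs1_C8 overlapped it (0.01). With leflunomide it was at 18.1, 19.3 and 15.96 CPM, against 23.4, 23.96 and 20.5 CPM with DMSO, with no overlap and a log2 fold change of -0.35 (SE 0.11).

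Tnfrsf12a (ENSMUSG00000023905.15, chr17:23675445-23677468, minus strand) encodes Fn14, the receptor for the ligand TWEAK. Per kilobase of merged exon it was the most abundant member in parental cells, at 83.9 CPM per kb, ahead of Tnfrsf22 at 17.1 CPM per kb. The other members ran from 10.1 CPM per kb for Tnfrsf23 through 8.08 for Tnfrsf1a, 7.94 for Tnfrsf10b and 3.42 for Tnfrsf26, all in CPM per kb, to 0.00586 CPM per kb for Tnfsf10. The Mff clones went in opposite directions for Tnfrsf12a, with 244, 227 and 212 CPM in gs1_B4 and 131, 123 and 132 CPM in gs1_C8, against 148, 160 and 178 CPM in parental cells. gs1_B4 was above parental in every library (0.46, SE 0.06) and gs1_C8 below it in every library (-0.35, SE 0.06). gs2_B4 was higher, at 197, 204 and 217 CPM (0.33, SE 0.06), and the remaining clones had log2 fold changes of 0.05 to 0.09. With leflunomide Tnfrsf12a was at 184, 174 and 151 CPM, against 144, 153 and 139 CPM with DMSO, and the groups overlapped.

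Fas (ENSMUSG00000024778.13, chr19:34290666-34327772, plus strand) encodes the death receptor for Fas ligand. It was high in 1 clone, with 17.8, 14.3 and 15.4 CPM in the Mff clone gs1_C8, against 2.75, 2.29 and 2.13 CPM in parental cells. The log2 fold change was 2.72 (SE 0.18), 6.58-fold. The other Mff clone, gs1_B4, had 3.29, 3.12 and 2.34 CPM and overlapped parental. Smaller differences were found in gs2_F6, at 4.43, 4.44 and 4.33 CPM (0.87, SE 0.20), and in gs2_B4, at 4.205, 4.298 and 3.024 CPM (0.67, SE 0.20). gs1B8 lay above parental in every library as well, at 3.54, 3.75 and 2.87 CPM (0.50, SE 0.20), and gs1_B11, at 2.91, 2.10 and 1.46 CPM, overlapped it.

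With leflunomide, Fas was at 2.61, 3.71 and 5.36 CPM, against 1.91, 1.82 and 2.05 CPM with DMSO. All 3 treated libraries were above all 3 DMSO libraries, with a log2 fold change of 1.02 (SE 0.27). This value did not pass the adjusted threshold in the filtered edgeR fit of the drug arm alone. On the same libraries it passed with DESeq2 and without the low-count filter. It also passed with all 27 libraries in 1 fit. Neither outcome is read as a test, because Fas was chosen on these libraries.

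**Figure D2:**
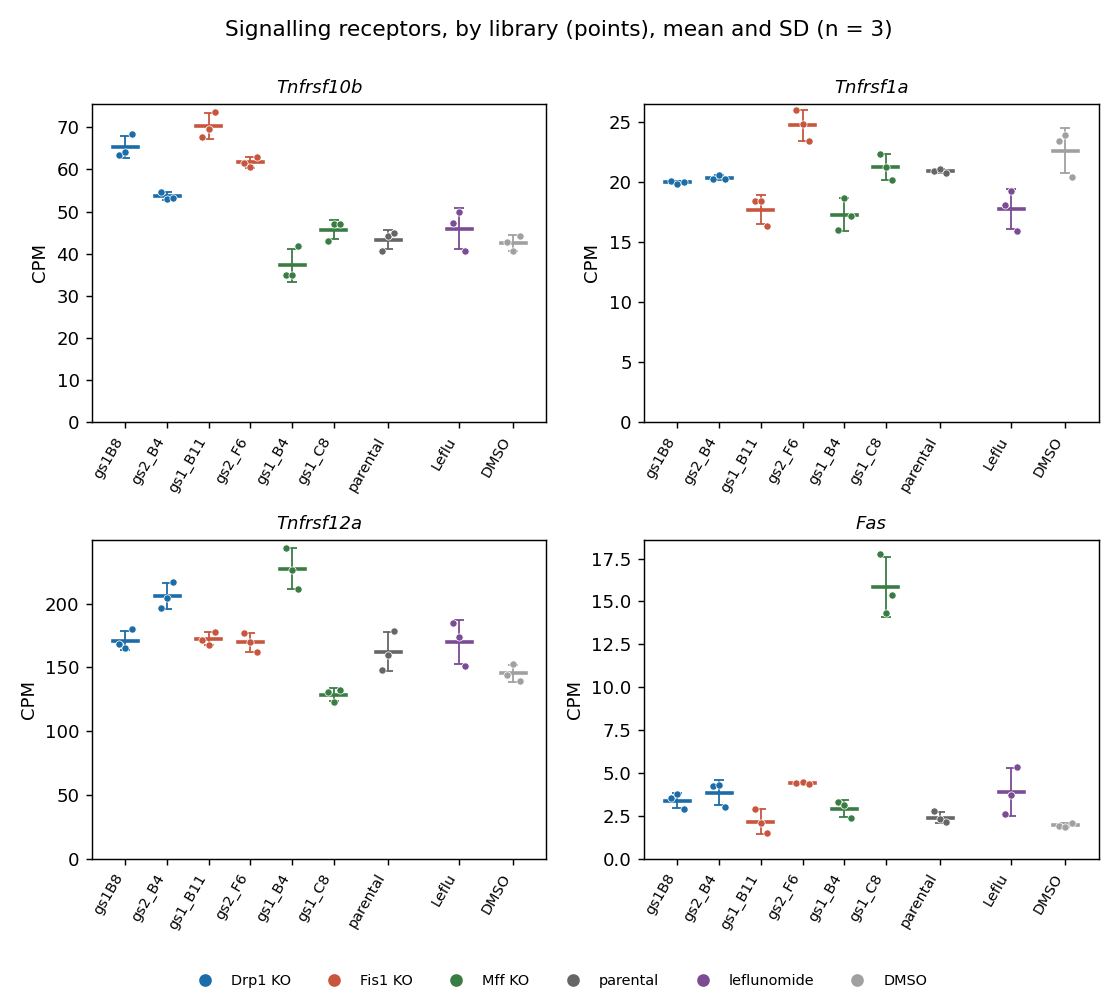
CPM (linear axis from 0) of Tnfrsf10b, Tnfrsf1a, Tnfrsf12a and Fas in the 9 groups; points are libraries, thick bars means and thin bars the SD of 3 libraries. Tnfrsf10b lies at 52.9 to 73.6 CPM in the Drp1 and Fis1 clones, against 40.7 to 44.97 CPM in parental cells, and Fas stands out in gs1_C8 at 14.3 to 17.8 CPM.

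The ligand genes were low, and each had its own pattern. Tnfsf10 (ENSMUSG00000039304.11, chr3:27317028-27342427, plus strand) encodes TRAIL, the ligand of Tnfrsf10b and of the decoy receptors. It had 39, 15 and 15 counts in gs1_C8, 69 in all, against 1, 0 and 1 counts in parental cells. Scaled for depth, the ratio of the summed counts was 30.4. Its 95% interval of 8.09 to 256 covers counting error only, and it is no test, because the gene was chosen on these comparisons. In the other 5 clones the 3 libraries summed to 1 to 6 counts, too few to read a ratio from. In the drug arm they summed to 5 counts with leflunomide and 3 with DMSO. Tnfsf10 passed the low-count filter through gs1_C8 alone, and its fitted fold changes are not given.

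Tnfsf15 (ENSMUSG00000050395.9) encodes TL1A, a ligand of the death receptor DR3. It was higher in both Mff clones, at 14.4, 13.4 and 19.4 CPM in gs1_B4 and 16.7, 16.4 and 19.4 CPM in gs1_C8, against 7.24, 6.98 and 6.43 CPM in parental cells. The log2 fold changes were 1.16 (SE 0.16) in gs1_B4 and 1.33 (SE 0.16) in gs1_C8. The Fis1 clones lay below parental, with 3.48, 3.40 and 4.03 CPM in gs2_F6 (-0.94, SE 0.18) and 3.46, 5.97 and 5.67 CPM in gs1_B11 (-0.45, SE 0.18). The value of gs1_B11 was near the threshold. It was -0.22 without gs1_B11 replicate 1, and -0.40, -0.43 and -0.49 without parental replicates 1, 2 and 3. With DESeq2 size factors it was -0.44, with ribosomal RNA genes left out -0.42, and with all 27 libraries in 1 fit -0.45. In each of these cases it no longer passed. gs1B8 overlapped parental for Tnfsf15 (-0.02), and gs2_B4 was at 4.54, 5.46 and 6.42 CPM (-0.35, SE 0.18).

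Leflunomide gave the largest log2 fold change of a member in the drug arm for Tnfsf15. It was at 9.17, 11.8 and 15.3 CPM with leflunomide, against 4.59, 3.97 and 5.68 CPM with DMSO, with no overlap and a log2 fold change of 1.35 (SE 0.21). The value was 1.33 without DMSO replicate 1, 1.24 without DMSO replicate 2 and 1.37 without leflunomide replicate 2, and in these 3 cases it did not pass the adjusted threshold. Summed leukocyte markers moved with the drug, at 12.5 to 16.4 CPM with leflunomide, against 4.83 to 7.13 CPM with DMSO. Of those 7 markers, Csf1r (7.38 CPM with leflunomide, 2.20 CPM with DMSO) and Cd68 (6.98 CPM with leflunomide, 3.68 CPM with DMSO) made up nearly all of the sum, and Cd3e and Adgre1 were at 0 in both groups. The 6 carcinoma markers summed to 1830 to 2080 CPM with leflunomide and to 2450 to 2540 CPM with DMSO, and the part of either shift in these values was not tested.

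Tnfsf9 (ENSMUSG00000035678.8, chr17:57105325-57107757, plus strand) encodes 4-1BBL, the ligand of the lymphocyte receptor 4-1BB. It was lower in gs1_B11, at 1.67, 1.99 and 1.65 CPM, against 3.65, 3.23 and 4.35 CPM in parental cells (-1.07, SE 0.19). The other Fis1 clone, gs2_F6, overlapped parental at 3.81, 4.89 and 4.50 CPM. gs1_B4 was higher at 4.95, 4.97 and 6.69 CPM (0.54, SE 0.17), a value of 0.38 without gs1_B4 replicate 3 and of 0.47 without parental replicate 2, neither of which passed the threshold. With leflunomide Tnfsf9 was at 8.72, 7.78 and 4.74 CPM, against 3.78, 4.50 and 4.95 CPM with DMSO, and the groups overlapped.

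**Figure D3:**
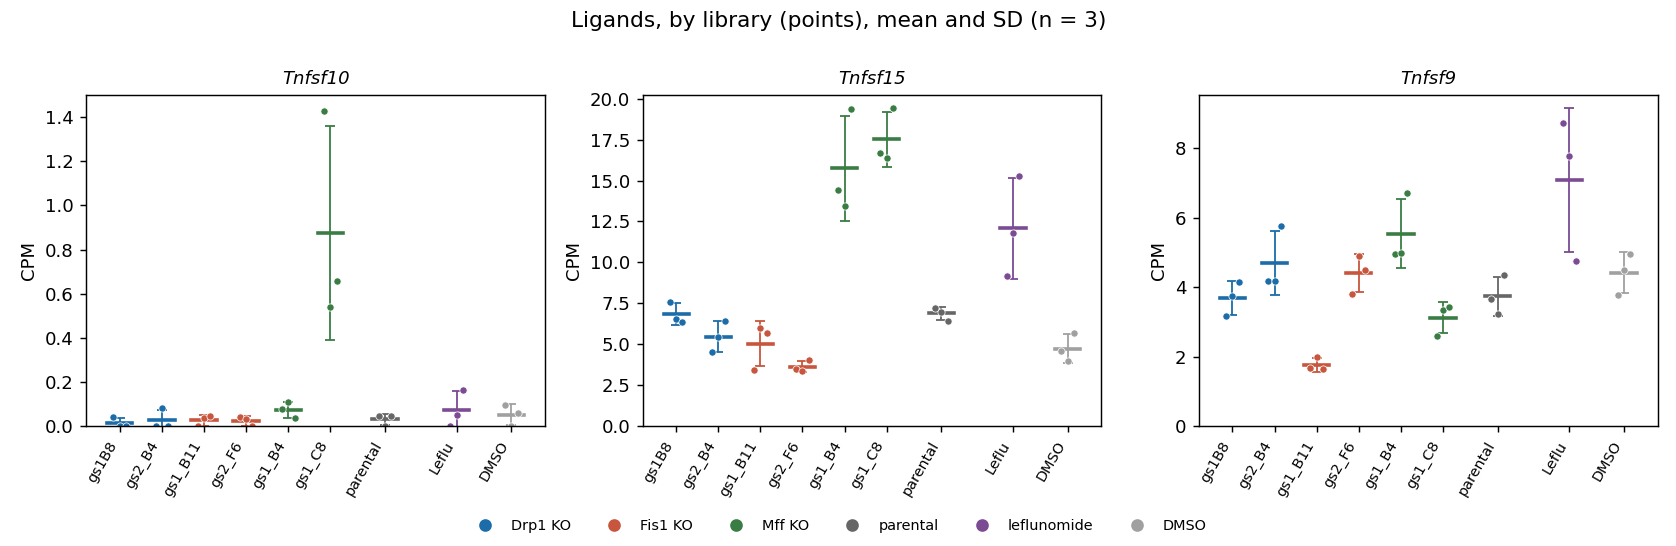
CPM (linear axis from 0) of the ligand genes Tnfsf10, Tnfsf15 and Tnfsf9 in the 9 groups; points are libraries, thick bars means and thin bars the SD of 3 libraries. Tnfsf10 is near 0 outside gs1_C8, and Tnfsf15 is highest in the Mff clones gs1_B4 and gs1_C8, at 13.4 to 19.4 CPM against 6.43 to 7.24 CPM in parental cells.

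Fas, Tnfsf10 and Tnfsf15 were all high in gs1_C8, and their promoters are shown for that reason. RefSeq promoter windows (GRCm38.p6) of 250 bases before to 50 bases after the start were matched for 6 of the 10 members: Tnfrsf23, Tnfrsf1a, Tnfrsf12a, Fas, Tnfsf10 and Tnfsf15. The 250 bases before the start are printed, for Fas chr19:34290409-34290658 on the plus strand, for Tnfsf10 chr3:27316827-27317076 on the plus strand and for Tnfsf15 chr4:63745060-63745309 on the minus strand. Capitals mark a match to TTCNNNGAA, the GAS element of interferon-responsive promoters.
Fas: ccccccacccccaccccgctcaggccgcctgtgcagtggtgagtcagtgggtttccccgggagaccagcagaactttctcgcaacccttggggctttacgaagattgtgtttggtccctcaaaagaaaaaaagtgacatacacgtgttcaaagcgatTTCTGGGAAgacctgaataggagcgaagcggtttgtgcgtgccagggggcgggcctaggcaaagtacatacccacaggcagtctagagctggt
Tnfsf10: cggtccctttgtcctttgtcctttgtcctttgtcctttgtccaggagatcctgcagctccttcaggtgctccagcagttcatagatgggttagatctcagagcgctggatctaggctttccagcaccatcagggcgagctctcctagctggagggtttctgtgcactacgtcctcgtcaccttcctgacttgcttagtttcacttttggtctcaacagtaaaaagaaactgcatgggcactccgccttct
Tnfsf15: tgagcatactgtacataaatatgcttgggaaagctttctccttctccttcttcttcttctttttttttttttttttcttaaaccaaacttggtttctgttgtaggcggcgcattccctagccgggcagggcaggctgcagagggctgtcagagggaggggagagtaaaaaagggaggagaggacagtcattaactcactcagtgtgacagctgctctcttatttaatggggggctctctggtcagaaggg

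Each 300-base window was searched on both strands for 3 motifs: TTCNNNGAA (GAS), GAAA followed after 2 bases of any kind by GAAA (ISRE, bound by interferon regulatory factors), and GGG followed after 2 bases of any kind by TTTCC (kappaB, bound by NF-kappaB). Fas held the GAS letters starting 93 bases before the start, and Tnfrsf1a held them 244 bases before it. These letters were in 8.30% of 32851 promoters of the same length. None of the 6 windows held the ISRE letters (3.44% of promoters) or the kappaB letters (1.63%). No matches of different motifs overlapped in these windows. A match describes the sequence and is not a site of binding.

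Markers of other cell types were checked in gs1_C8, where these 3 genes were high. The 5 fibroblast markers summed to 6.42 to 8.07 CPM in gs1_C8, against 4.21 to 4.26 CPM in parental cells. Pdgfra made up nearly all of it, at 7.26 CPM in gs1_C8 and 4.05 CPM in parental cells, while Pdgfrb and Dcn had 1 count each in gs1_C8 and 0 in parental cells, and Lum was at 0 in both. The 7 leukocyte markers summed to 7.87 to 8.93 CPM in gs1_C8 and to 8.52 to 8.97 CPM in parental cells. The part of the Pdgfra shift in the values of these genes was not tested.

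Members were also counted with the fit over all genes, at an adjusted p below 0.05. The members were chosen on these comparisons, so nothing is read from the counts. In gs1B8, 2 of 10 members were higher and 0 lower, where 12.1% of 13940 tested genes passed higher and 17.4% lower (29.5% in all). In gs2_B4, 4 were higher and 1 lower, with 24.1% of all tested genes higher and 26.3% lower (50.3%). In gs1_B11, 2 were higher and 5 lower, with 21.4% and 25.9% of all genes (47.3%).

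The other Fis1 clone, gs2_F6, had 4 members higher and 2 lower, with 13.1% and 18.2% of all genes (31.3%). In gs1_B4, 3 were higher and 4 lower, with 20.9% and 26.8% of all genes (47.7%), and in gs1_C8, 3 were higher and 2 lower, with 21.5% and 25.2% (46.7%). The 3 higher in gs1_C8 include Tnfsf10, which passed the low-count filter through that clone alone. It is also in the count by range given for gs1_C8 below, and among the tested members of every clone. With leflunomide, 1 of 9 tested members was higher and 0 were lower, with 1.84% and 0.944% of 12603 genes (2.79%). Members whose 3 libraries all lay outside the parental range numbered 4, 8, 7, 6, 6 and 6 in gs1B8, gs2_B4, gs1_B11, gs2_F6, gs1_B4 and gs1_C8, and 3 with leflunomide lay outside the DMSO range. Among all tested genes the same held for 44.7%, 57.8%, 54.5%, 42.2%, 51.7% and 54.5% in the clones in that order, and for 26.2% with leflunomide.

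The clones of a genotype were also counted together, and again nothing is read from the counts. Both Drp1 clones passed with the same sign for Tnfrsf26 and Tnfrsf10b, both higher, where 20% of all tested genes passed in both clones with 1 sign (7.94% higher, 12.1% lower). Both Fis1 clones passed for Tnfrsf26 and Tnfrsf10b, higher, and for Tnfrsf22 and Tnfsf15, lower, where 15% of all genes did (5.94% higher, 9.02% lower). For Tnfsf15 the gs1_B11 value was near the threshold, as given above. Both Mff clones passed for Tnfsf15, higher, and for Tnfrsf22, lower, where 18.6% of all genes did (7.37% higher, 11.3% lower). Tnfrsf1a in the Fis1 clones and Tnfrsf12a in the Mff clones passed with opposite signs.

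**Figure D4:**
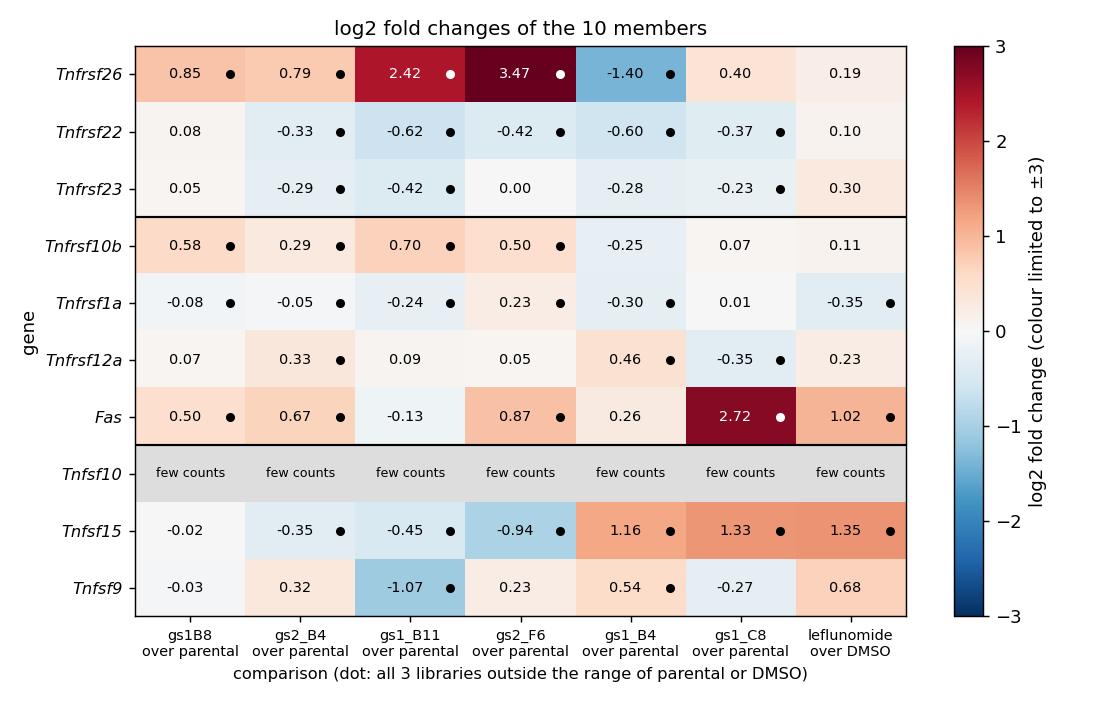
Log2 fold changes of the 10 members (rows: chromosome 7 receptors, other receptors, ligands) in the 7 comparisons (columns); colour gives the value, and a dot marks values whose 3 libraries all lie outside the range of parental or DMSO. Tnfsf10 is left out for its few counts. Tnfrsf26 reaches 3.47 in gs2_F6 and Fas 2.72 in gs1_C8.

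Across the 9 group means of log2 CPM, Tnfrsf26 and Tnfrsf10b had a Pearson r of 0.85, and Tnfrsf26 and Tnfsf15 had -0.65. These are descriptions over 9 points, in which 6 clones share 1 parental line. Among 9747 tested genes with a mean of at least 5 CPM, those most like Tnfrsf26 were Med4 (r = 0.954) and Afg3l2 (r = 0.947), and those most like Tnfrsf10b were Dhx33 (0.969) and Pelp1 (0.964). Closest to Fas were Ttc17 and Parp10 (0.974 each), and closest to Tnfsf15 were Cpeb4 (0.970) and Parp3 (0.940). None is given for Tnfsf10, whose counts outside gs1_C8 are too few. For the remaining members the nearest genes were Hps3 and Kirrel for Tnfrsf22 (0.864 and 0.859) and Cptp and Gsta4 for Tnfrsf23 (0.902 and 0.856). They were Ehd2 and Rab2a for Tnfrsf1a (0.926 and 0.923) and Ddah1 and Hbegf for Tnfrsf12a (0.981 and 0.979). For Tnfsf9 they were Iqcb1 and Otud6b (0.943 and 0.936). These genes were picked as the closest of 9747 over 9 points. Over the 27 libraries each r was lower, from 0.615 (Gsta4 with Tnfrsf23) to 0.941 (Parp10 with Fas).

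Most of the rest of the family was near 0 in these cells. Of 21 other TNF receptors, 8 passed the low-count filter in the knockout arm, and of 15 other ligands, 1. Tnf itself had at most 5 counts in a library and Fasl, the ligand of Fas, at most 3. The 4-1BB gene Tnfrsf9, whose ligand Tnfsf9 encodes, reached at most 0.620 CPM, and the DR3 gene Tnfrsf25, the receptor for Tnfsf15, had at most 2 counts. Tnfsf12, which encodes TWEAK, was listed at 0 in all libraries, in a locus where a readthrough gene, Tnfsfm13, overlaps it.

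Among the other receptors, Tnfrsf1b, the TNF receptor without a death domain, was higher in both Drp1 clones and in gs1_B11, and Ltbr, the lymphotoxin beta receptor, was lower in these and in gs1_B4. Tnfrsf1b averaged 20.3 CPM in gs2_B4 and 16.4 CPM in gs1B8, against 13.4 CPM in parental cells (log2 fold changes 0.58, SE 0.09, edgeR adjusted p = 2.9e-05, and 0.28, SE 0.09, edgeR adjusted p = 0.032). In gs1_B11 it averaged 17.85 CPM (0.42, SE 0.09, edgeR adjusted p = 0.0011). The call in gs1B8 did not hold without gs1B8 replicate 1 (0.24), gs1B8 replicate 2 (0.24), parental replicate 2 (0.27) or parental replicate 3 (0.21). Ltbr was lowest in gs1_B11, at 26.4 CPM, against 35.9 CPM in parental cells (-0.44, SE 0.05, edgeR adjusted p = 4.6e-07). It averaged 30.2 CPM in gs2_B4 and 32.0 CPM in gs1B8, against 35.9 CPM in parental cells (-0.26, edgeR adjusted p = 0.00014, and -0.18, edgeR adjusted p = 0.0086), and the value in gs1B8 did not pass without parental replicate 2 (-0.15), without the low-count filter (-0.16) or with all 27 libraries in 1 fit (-0.17). In gs1_B4 it was at 32.4 CPM (-0.18, edgeR adjusted p = 0.0051), and this did not pass without parental replicate 2 (-0.13), without the low-count filter (-0.15) or with all 27 libraries in 1 fit (-0.15). Tnfrsf21, the death receptor DR6, was higher in gs1_B11 at 32.4 CPM, against 23.2 CPM in parental cells (0.49, SE 0.11, edgeR adjusted p = 0.0011). It was higher in gs2_B4 too (0.34, SE 0.11, edgeR adjusted p = 0.014), a call that did not hold without gs2_B4 replicate 1 (0.27) or parental replicate 3 (0.18).

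Cd40 and Ngfr were low and varied more among clones than these. Cd40, a receptor of antigen-presenting cells, averaged 5.70 CPM in gs1_B4, against 0.830 CPM in parental cells (2.73, SE 0.28, edgeR adjusted p = 1.3e-07). It averaged 0.199 CPM in gs1_C8, the other Mff clone (-2.10, SE 0.39, edgeR adjusted p = 0.00019). In gs2_B4 it averaged 0.0495 CPM (-3.93, SE 0.50, edgeR adjusted p = 1.7e-06). That level is near the 0.0384 CPM that 3 counts over gs2_B4 would give, so the size of this fold change is uncertain. The Cd40 call in gs2_F6 (-0.93, edgeR adjusted p = 0.044) held, of the 6 libraries left out in turn, only without parental replicate 1. Without each of the others the value was -1.08 to -0.65. The call also did not hold with DESeq2 (-0.93) or without the low-count filter (-0.91). Ngfr, the low-affinity neurotrophin receptor, was at 8.27 CPM in gs2_B4, against 1.08 CPM in parental cells (2.93, SE 0.28, edgeR adjusted p = 4.2e-08), and at 0.263 CPM in gs1B8, the other Drp1 clone (-2.01, SE 0.39, edgeR adjusted p = 0.00059). It was also lower in gs1_C8 (-2.45, SE 0.42), gs1_B11 (-1.25, SE 0.36) and gs1_B4 (-0.98, SE 0.35), and in gs1_B4 it did not pass without parental replicate 1 (-0.75), gs1_B4 replicate 2 (-0.88) or gs1_B4 replicate 3 (-0.80). The ligand Eda, ectodysplasin A, was the only other ligand tested and was chosen for naming after its values were seen. Its libraries summed to 0 counts in gs2_F6, 3 in gs2_B4, 7 in gs1_B11, 14 in gs1B8, 36 in gs1_C8 and 93 in gs1_B4, against 67 in parental cells. Taking 3 counts over the group as the floor, Eda was at least 25.6-fold lower in gs2_F6.

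Of 23 listed genes that act in death receptor signalling, 22 were tested. In gs1B8, 3 were higher and 7 lower, and in gs2_B4, 4 were higher and 8 lower. In gs1_B11, 2 were higher and 11 lower, and in gs2_F6, 1 was higher and 6 lower. In gs1_B4, 6 were higher and 10 lower, and in gs1_C8, 8 were higher and 4 lower. As shares of the tested list these are 45.5%, 54.5%, 59.1%, 31.8%, 72.7% and 54.5% in that order, beside 29.5%, 50.3%, 47.3%, 31.3%, 47.7% and 46.7% of all tested genes. The share in gs2_F6 is at that of all genes, and those in gs2_B4 and gs1_C8 are near it. The gap was not tested in any clone, and no excess of the list is read from it. With leflunomide no listed gene of this group passed. The list medians of the log2 fold change were -0.14, -0.12, -0.19, -0.02, -0.17 and 0.02 in the clones in that order, beside medians of between -0.02 and 0.00 over all tested genes.

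Mlkl, the effector of necroptosis, was lower in the Drp1 and Fis1 clones, by -0.31 in gs1B8, -0.82 in gs2_B4, -0.47 in gs1_B11 and -0.49 in gs2_F6 (edgeR adjusted p at most 0.00013). In the Mff clones it was lower in gs1_B4 (-0.17, edgeR adjusted p = 0.0091) and higher in gs1_C8 (0.15, edgeR adjusted p = 0.02). The first of these did not pass without parental replicate 2 (-0.15), parental replicate 3 (-0.14) or the low-count filter (-0.15), and the second without parental replicate 1 (0.13) or gs1_C8 replicate 1 (0.11). Ripk3, the kinase that activates Mlkl, had 1 count in all libraries together.

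Casp8, the initiator caspase recruited by death receptors, was higher in both Mff clones. It averaged 108 CPM in gs1_B4 and 97.6 CPM in gs1_C8, against 70.8 CPM in parental cells (0.58 and 0.45, SE 0.05 each, edgeR adjusted p = 2.5e-08 and 7.1e-07), and its log2 fold changes in the Drp1 and Fis1 clones ran from -0.03 to 0.08. Fadd, the adaptor that recruits it, did not pass in any of the 7 comparisons, with log2 fold changes of -0.19 to 0.15. Cflar, which encodes the caspase-8 inhibitor FLIP, was higher in both Drp1 clones, at 115 CPM in gs1B8 and 141 CPM in gs2_B4, against 82.0 CPM in parental cells (0.47 and 0.77, SE 0.14 each). The call in gs1B8 (edgeR adjusted p = 0.014) did not hold without gs1B8 replicate 2 (0.44). Cflar was also higher in gs1_B4 at 159 CPM (0.92, SE 0.14, edgeR adjusted p = 1.6e-05) and in gs1_B11 at 124 CPM (0.60, SE 0.14, edgeR adjusted p = 0.0015).

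Other genes of this group that moved in both clones of a genotype act on the receptor complex. Tradd, the adaptor of the TNF receptor, was lower in both Drp1 clones (-0.58 in gs1B8 and -0.69 in gs2_B4), in gs1_B11 (-0.49) and in gs1_B4 (-0.44), where it did not pass without parental replicate 2 (-0.35). The ubiquitin ligase gene Birc3, which encodes cIAP2, was higher in gs1B8 at 18.96 CPM, in gs1_C8 at 18.7 CPM, in gs1_B4 at 15.6 CPM and in gs1_B11 at 14.9 CPM, against 12.02 CPM in parental cells (0.65, 0.63, 0.35 and 0.31 in that order, edgeR adjusted p at most 0.0049). Faim, an inhibitor of Fas-driven death, was lower in both Mff clones (-0.47 in gs1_B4 and -0.23 in gs1_C8), in gs2_B4 (-0.52) and in gs1_B11 (-0.38).

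The kinase gene Ripk1 was higher in both Drp1 clones (0.19 in gs1B8 and 0.28 in gs2_B4) and in both Mff clones (0.32 in gs1_B4 and 0.22 in gs1_C8). In gs1_C8 it did not pass without parental replicate 1 (0.18), and in gs1B8 it held, of the 6 libraries left out in turn, only without parental replicate 3, at 0.15 to 0.21 without each of the others. The deubiquitinase gene Cyld was lower in both Drp1 clones (-0.27 in gs1B8 and -0.71 in gs2_B4), in gs2_F6 (-0.40), in gs1_B11 (-0.19) and in gs1_B4 (-0.17). In gs1_B11 it did not pass without gs1_B11 replicate 1 (-0.14), gs1_B11 replicate 2 (-0.13) or parental replicate 3 (-0.16). In gs1_B4, of the libraries left out in turn, it held only without gs1_B4 replicate 3, at -0.17 to -0.14 without each other library. The gs1_B4 value also did not pass with DESeq2, with DESeq2 size factors or without the low-count filter (-0.14 each). Nor did it pass with ribosomal RNA genes left out or with all 27 libraries in 1 fit (-0.14 each).

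Tnfaip3, which encodes the NF-kappaB inhibitor A20, was lowest in gs1_B4, at 122 CPM, against 197 CPM in parental cells (-0.73, SE 0.09, edgeR adjusted p = 2.3e-06). It was also lower in gs1_B11 (-0.41), gs2_F6 (-0.30) and gs1B8 (-0.26). In gs2_F6 it did not pass without gs2_F6 replicate 1 (-0.23), gs2_F6 replicate 2 (-0.27) or parental replicate 3 (-0.26). In gs1B8, of the libraries left out in turn, it held only without gs1B8 replicate 3, at -0.28 to -0.21 without each other library. The gs1B8 value also did not pass with ribosomal RNA genes left out (-0.24) or with all 27 libraries in 1 fit (-0.25).

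All 23 listed genes that link TRAF proteins to NF-kappaB were tested. Those higher and lower numbered 7 and 3 in gs1B8, 8 and 8 in gs2_B4, 5 and 6 in gs1_B11, 2 and 5 in gs2_F6, 6 and 6 in gs1_B4, and 6 and 5 in gs1_C8. As shares of the list these are 43.5%, 69.6%, 47.8%, 30.4%, 52.2% and 47.8%, beside the same shares of all tested genes as above, and those in gs1_B11, gs2_F6 and gs1_C8 are at the share of all genes. The share in gs1_B4 is near it, and the gap was not tested in any clone. The list medians of the log2 fold change were between -0.05 and 0.05 in the clones. Nfkbie, which encodes the inhibitor IkappaB-epsilon, was higher in both Drp1 and both Fis1 clones, at 19.98 CPM in gs1B8, 18.8 CPM in gs2_B4, 15.6 CPM in gs1_B11 and 13.7 CPM in gs2_F6, against 7.39 CPM in parental cells. Its log2 fold changes were 1.42, 1.33, 1.08 and 0.88 in that order (SE 0.10 each, edgeR adjusted p at most 1.2e-06), and in the Mff clones they were 0.18 in each and did not pass.

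Traf4 was higher in all 6 clones by 0.17 to 0.37 on the log2 scale, and without gs2_F6 replicate 2 its value in that clone was 0.15 and did not pass. Relb and Nfkbia were higher in both Drp1 clones and both Mff clones. Nfkbia averaged 49.6 CPM in gs1B8, 62.7 CPM in gs2_B4, 54.6 CPM in gs1_B4 and 47.7 CPM in gs1_C8, against 36.5 CPM in parental cells (edgeR adjusted p at most 0.00068). Relb was higher in gs1_B11 as well (0.18). This did not pass without parental replicate 1 (0.17), parental replicate 3 (0.18) or gs1_B11 replicate 2 (0.17). Nor did it pass with DESeq2 (0.19) or without the low-count filter (0.18). Traf1 was higher in both Drp1 clones (0.60 in gs1B8 and 0.30 in gs2_B4) and in gs1_B4 (0.18), the last of which did not pass without parental replicate 1 (0.17), parental replicate 2 (0.19), gs1_B4 replicate 1 (0.12) or gs1_B4 replicate 3 (0.17).

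Tank, which encodes a TRAF-binding regulator, was lower in both Fis1 clones (-0.35 in gs1_B11 and -0.30 in gs2_F6) and both Drp1 clones (-0.17 in gs1B8 and -0.19 in gs2_B4), and higher in gs1_B4 (0.66, SE 0.06). In gs2_B4 it did not pass without gs2_B4 replicate 1 (-0.16) or parental replicate 3 (-0.14). In gs1B8 it held, of the 6 libraries left out in turn, only without parental replicate 2, at -0.19 to -0.13 without each of the others. The gs1B8 value also did not pass with DESeq2, with DESeq2 size factors or without the low-count filter (-0.16 each). Nor did it pass with ribosomal RNA genes left out (-0.15) or with all 27 libraries in 1 fit (-0.16). Traf2 was lower in gs1_B11 (-0.47, SE 0.06, edgeR adjusted p = 4.3e-06) and did not pass in the other 6 comparisons.

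Genes of kinase complexes that act in the activation of NF-kappaB were also among those that moved in both clones of a genotype. Ikbkb was lower in both Drp1 clones (-0.26 in gs1B8 and -0.34 in gs2_B4), in gs1_B4 (-0.19) and in gs2_F6 (-0.17), where it did not pass without the low-count filter (-0.15). Tab1 was lower in both Mff clones (-0.45 in gs1_B4 and -0.52 in gs1_C8), and in gs1_B4 it did not pass without parental replicate 1 (-0.30). Chuk was lowest in gs2_B4 (-0.69, SE 0.04, edgeR adjusted p = 2.7e-11) and was also lower in gs1_C8 (-0.24), gs1_B4 (-0.14), gs1B8 (-0.11) and gs1_B11 (-0.11). Its call in gs1_B4 did not hold without parental replicate 2 (-0.10) or the low-count filter (-0.12). That in gs1_B11 did not hold without gs1_B11 replicate 1 (-0.06), parental replicate 2 (-0.10) or the low-count filter (-0.12). It also failed there with ribosomal RNA genes left out (-0.09). The call in gs1B8 did not hold without any 1 of the 6 libraries (-0.13 to -0.09). Nor did it hold with DESeq2 size factors, without the low-count filter or with all 27 libraries in 1 fit (-0.10 each). With ribosomal RNA genes left out, the gs1B8 value (-0.09) did not pass either.

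Nfkb2, a subunit gene of NF-kappaB, was lower in gs2_B4 (-0.52), gs1_B11 (-0.24), gs1_C8 (-0.23) and gs2_F6 (-0.15). In gs2_F6 it did not pass with DESeq2 (-0.14) or without the low-count filter (-0.13). Nor did it pass with DESeq2 size factors, with ribosomal RNA genes left out or with all 27 libraries in 1 fit (-0.14 each). It also failed without gs2_F6 replicate 1 (-0.12), gs2_F6 replicate 2 (-0.16), parental replicate 2 (-0.12) or parental replicate 3 (-0.13).

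With leflunomide, 3 of 52 tested genes of the 4 lists passed (5.77%, beside 2.79% of all tested genes). Nfkbia averaged 47.2 CPM with leflunomide, against 31.6 CPM with DMSO (0.58, SE 0.07, edgeR adjusted p = 0.0099), and Relb 13.1 CPM, against 8.97 CPM (0.54, SE 0.09, edgeR adjusted p = 0.029). Ngfr averaged 0.696 CPM with leflunomide, against 2.26 CPM with DMSO (-1.71, SE 0.35, edgeR adjusted p = 0.045). The call for Nfkbia did not hold without DMSO replicate 1 (0.55), DMSO replicate 2 (0.61) or leflunomide replicate 2 (0.58). Those for Relb and Ngfr held only without leflunomide replicate 3: without each of the other 5 libraries in turn, Relb was at 0.53 to 0.55 and Ngfr at -2.06 to -1.61, and neither passed.

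**Figure D5:**
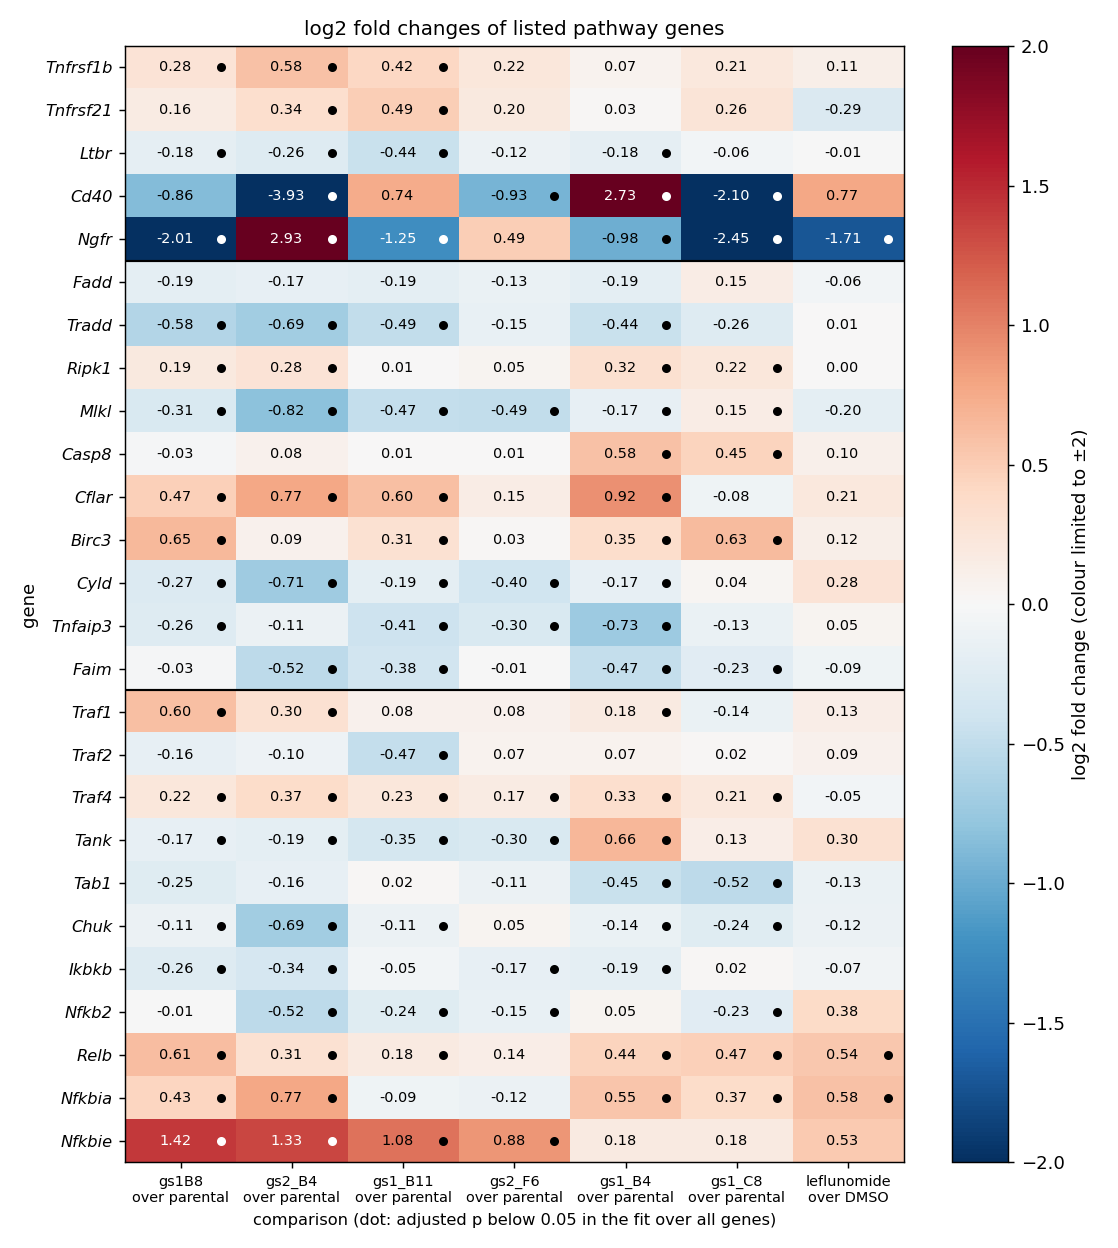
Log2 fold changes of 26 genes of the family and pathway lists (rows, other receptors above death receptor signalling above TRAF and NF-kappaB signalling) in the 7 comparisons (columns); colour gives the value, and a dot marks an edgeR adjusted p below 0.05. Traf4 carries a dot in all 6 clones, and Nfkbie in the Drp1 and Fis1 clones alone.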

How the data were processed

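The 10 members and the gene lists were chosen with earlier results of these data known. Per the submitters' processing notes, the tools were Trimmomatic 0.35 and RSEM and the build GRCm38 (mm10). RSEM's version, aligner and annotation: not given in the sources used here. Values were deposited by the authors in the form of expected counts, of which 91.5% were whole, and were rounded to whole numbers before fitting. Libraries were grouped by column names. These carry serial numbers, so replicates were numbered in that order within a group.

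In R 4.3.3 with edgeR 4.0.16, the 21 knockout-arm libraries were fitted together with 1 coefficient per clone or parental line, and the 6 drug-arm libraries alone. Genes passed filterByExpr (13940 and 12603), were scaled by TMM and tested with the two-sided quasi-likelihood F test, with Benjamini-Hochberg adjustment over all tested genes at 0.05. On simulated counts for gs1B8 it called 79% of genes given a 1.5-fold change and 93% given a 2-fold change, with 7.0% of calls false. For leflunomide these were 46%, 80% and 6.7%. The changed genes had a mean of at least 1 CPM, and for gs1B8 they were far fewer than passed in the data. These percentages describe the simulated setting and not the real comparisons. Counting intervals are at 95%.

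All members are named. Of each list, up to 5 genes that passed with the same sign in both clones of a genotype or with leflunomide were taken by the smaller log2 fold change, with a mean of at least 1 CPM, and Tnfrsf1b, Ltbr, Tnfrsf21, Cd40, Fasl, Tnf, Fadd, Casp8, Cflar and Traf2 always. Some items under this rule are not reported here. The 2 genes most like each member and the tested neighbours within 500 kb were added. Merged exon lengths and transcripts are from GENCODE M21, whose coordinates for Tnfsf15 differ from the table's. Alternatives were DESeq2 1.42.0, its size factors, no low-count filter, ribosomal RNA genes left out, all 27 libraries in 1 fit, serial run as a block, and each library left out. Figures used Python 3.11.15 and matplotlib 3.10.9.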

Additional observations from a re-analysis of the deposited data

Results flagged for a closer look

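Tnfrsf1a went in opposite directions in the Fis1 clones, with a log2 fold change over parental of -0.24 in gs1_B11 and 0.23 in gs2_F6. Tnfrsf12a did so in the Mff clones, with 0.46 in gs1_B4 and -0.35 in gs1_C8. Tnfsf15 was lower in both Fis1 clones, at -0.45 in gs1_B11, a value near the threshold, and -0.94 in gs2_F6. It was higher in both Mff clones, at 1.16 in gs1_B4 and 1.33 in gs1_C8. In each case every library of one group lay on the opposite side of the parental libraries from every library of the other. The difference between the groups themselves was not tested, because the members were chosen from these comparisons.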

How the results depend on the processing

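No member's log2 fold change changed sign where it had passed the threshold, under any alternative run, and in the 6 clone comparisons every count of passing genes, listed genes and members stayed within 1.5 times its value. With leflunomide the counts moved. All genes passing numbered 351, against 767 with DESeq2, 957 without the low-count filter, 2532 with all 27 libraries in 1 fit, and 10 to 1583 with each library left out. Listed genes numbered 3, against 5, 6 and 15 in the same settings and 0 to 8 with a library left out. Members numbered 1, against 2, 2 and 5, and 0 to 3 with a library left out. The lowest counts came without leflunomide replicate 2, DMSO replicate 1 or DMSO replicate 2 and the highest without leflunomide replicate 3, and the cause was not tested. No paired analysis was possible because the columns do not carry the replicate numbers of the labels, and this holds for pairing by those numbers. The column names carry serial numbers, whose runs hold 1 library of each clone or treatment of an arm, and a fit with that run as a block was made. Deviations of libraries of 1 run correlated at 0.05 on average in the knockout arm (lowest -0.08) and 0.15 in the drug arm (lowest 0.03). In that fit Fas in gs1B8, Tnfrsf23 in gs2_B4, gs1_B4 and gs1_C8, and Tnfrsf26 in gs1_C8 also passed. Depth limits Tnfsf10 and Eda, which have few counts. It also limits the low values of Cd40 in gs2_B4 (0.0495 CPM) and gs1_C8 (0.199 CPM), and of Ngfr in gs1B8 (0.263 CPM) and gs1_C8 (0.196 CPM). Tnfrsf22 and Tnfrsf23 are limited by reads they share.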
